A study of Mus musculus with 1 sample.

Results

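The contigs described here were the non-productive T cell receptor (TCR) transcripts of peripheral blood T cells from 1 mouse. They were chosen as the assembled contigs whose barcode was called a cell, whose chain was TRA (α) or TRB (β) and which were not marked productive, a mark that the pipeline gives to a full-length contig with a start codon, an in-frame CDR3 (the junction of V and J) and no stop codon. There were 323 such contigs, 206 of TRA and 117 of TRB, among 2180 TRA and TRB contigs of 975 cells and 6687 contigs in the whole table. They lay in 289 cells, of which 257 held 1, 30 held 2 and 2 held 3. The other 1857 TRA and TRB contigs of the 975 cells were productive (876 TRA and 981 TRB). All 323 carried the mark for high confidence.

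The mouse belonged to the vehicle group, which received PBS every 3 days. It was of the C57BL/6 background and carried an autochthonous small cell lung cancer (SCLC), started by intratracheal adenoviral Cre, which deletes conditional Rb1 and Trp53 alleles in the cells that the virus reaches. T cells were enriched from 150 µl of blood by negative selection, and a V(D)J library and a gene expression library were made from the same cells. The age of this animal was not given in the sources used here. There was 1 library of each kind and no replicate, so no comparison below carries a p-value, and the 95% intervals (exact binomial for shares, exact Poisson for pooled counts, order statistics for medians) cover counting error only. For a count of 0 the limit given is 3 counts of the total. The intervals treat contigs as independent, which those of one clonotype are not. No doublet caller was run. The cells held from 569 to 17444 gene expression unique molecular identifiers (UMIs, each standing for 1 captured transcript), with a median of 5057. Cd3e, a subunit of the CD3 complex that carries the TCR to the surface, was detected in 283 of the 289 cells with a non-productive contig and in 649 of the other 686. The B cell genes Cd79a and Cd79b were detected in 2 and 14 of the 289. The α constant gene Trac was detected in 157 of the 289 and in 346 of the 686. Cd3d, another CD3 subunit, was in 273 and 599, with intervals apart (91.2% to 96.8% and 84.6% to 89.7%). The 289 cells had a median of 5467 UMIs and the 686 a median of 4888.5, and what part depth had in this detection was not tested. Klrd1, listed as a natural killer cell marker, was in 132 and 326, and Cst3, listed for monocytes, in 104 and 217.

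A T cell builds each receptor chain by joining a V to a J segment, with a D segment between them in TRB, under the RAG recombinase. Bases are trimmed and added at the joint, so many joints shift the reading frame. A cell has 2 alleles of each locus, and a failed rearrangement stays in its genome beside a working one. At the TRB locus a working chain halts further joining on the other allele, a process called allelic exclusion. At the TRA locus joining goes on at both alleles and moves towards distal J segments until the cell is positively selected. Transcripts with an early stop codon are degraded by nonsense-mediated decay.

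The junctions below are shown because the same non-productive joint was read in more than 1 cell of a clonotype, or because the contig had the most UMIs or was in frame. Each is the CDR3 that the authors' pipeline gave, 5′ to 3′ on the coding strand, with the bases of the V cysteine codon, at which a productive CDR3 begins, in capitals. A clonotype is the authors' group of cells by their productive chains, and a chain of it was not always read in all of its cells.
Clonotype 1, non-productive TRAV11/TRAJ27, 2 cells: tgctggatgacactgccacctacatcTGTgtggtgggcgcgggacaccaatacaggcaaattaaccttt
Clonotype 1, productive TRAV7-4/TRAJ34, 8 cells: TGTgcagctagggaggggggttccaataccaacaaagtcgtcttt
Clonotype 1, non-productive TRBV10/TRBJ2-7, 2 cells: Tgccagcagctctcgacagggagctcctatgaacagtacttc
Clonotype 1, productive TRBV12-2/TRBJ1-6, 9 cells: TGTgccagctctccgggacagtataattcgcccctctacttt
Clonotype 3, non-productive TRAV12-1/TRAJ26, 3 cells: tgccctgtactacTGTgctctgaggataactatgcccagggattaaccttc
Clonotype 3, productive TRAV9-2/TRAJ22, 4 cells: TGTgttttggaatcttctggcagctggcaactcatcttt
Clonotype 20, non-productive TRBV15/TRBJ1-2, 2 cells: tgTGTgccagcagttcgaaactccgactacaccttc
Clonotype 20, productive TRBV16/TRBJ1-3, 2 cells: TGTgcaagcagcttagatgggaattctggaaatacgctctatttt
Most UMIs of an out-of-frame TRA, TRAV6D-6/TRAJ23: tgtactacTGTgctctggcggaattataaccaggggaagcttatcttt
Most UMIs of an out-of-frame TRB, TRBV31/TRBJ1-3: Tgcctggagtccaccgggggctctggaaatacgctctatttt
In frame, TRAV13N-4/TRAJ7: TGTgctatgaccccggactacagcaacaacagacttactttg
In the 4 clonotype junctions marked non-productive, and in those of TRAV6D-6 and TRBV31, the given CDR3 did not start on the cysteine codon. It started 26 bases before it in TRAV11, 13 before it in TRAV12-1, 8 before it in TRAV6D-6, 2 before it in TRBV15, and 2 bases into it in TRBV10 and TRBV31. The TRAV13N-4 junction started on the codon, as did the productive ones.

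The frame was read by setting the V cysteine codon and the J phenylalanine codon of productive contigs of the same V and J gene against each given CDR3. A CDR3 was given for 99 of 206 non-productive TRA contigs (48.1%, 41.1 to 55.1) and for 75 of 117 TRB contigs (64.1%, 54.7 to 72.8), against every productive contig. Both anchors were found in 78 TRA and 62 TRB contigs. Of these, 57 TRA and 46 TRB contigs were out of frame, and 21 TRA (26.9%, 17.5 to 38.2) and 16 TRB (25.8%, 15.5 to 38.5) were in frame. The 876 productive TRA and 981 productive TRB contigs were all read as in frame, since they supplied the anchors. The given CDR3 started off the cysteine codon in 44 of the 78 TRA and 41 of the 62 TRB contigs, so that its bases were a run without a stop in a frame other than that of V in many of them. In the remaining contigs the frame was not read.

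Contigs that were not full length, that is, did not span the start of V to the end of J, were more often in frame. The mark was on 167 of 206 non-productive TRA contigs (81.1%, 75.04 to 86.2) and on 78 of 117 TRB contigs (66.7%, 57.4 to 75.1), and on every productive contig, for which it is required. Among TRB contigs with both anchors, 4 of 48 full-length contigs were in frame (8.33%, 2.32 to 19.98) against 12 of 14 that were not full length (85.7%, 57.2 to 98.2). In TRA the same shares were 11 of 60 (18.3%, 9.52 to 30.4) and 10 of 18 (55.6%, 30.8 to 78.5), whose intervals also did not overlap. A full-length contig with a start codon, in frame and without a stop codon would have been marked productive, so this split is in part set by the mark. Of the productive contigs of cells, 583 of 1857 (31.4%, 29.3 to 33.6) had their CDR3 in a contig of another barcode of either kind. Of the non-productive contigs with a CDR3 it was 33 of 174 (19.0%, 13.4 to 25.6). Against productive contigs only, which is not the same measure, the CDR3 of 11 of the 37 in-frame contigs (29.7%, 15.9 to 47.0) stood in one of another barcode. One such contig was the non-productive TRAV13N-1/TRAJ9 of clonotype 2, of 367 bases and 1 UMI, whose junction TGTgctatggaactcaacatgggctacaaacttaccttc was that of the productive TRAV13N-1/TRAJ9 in 7 cells of the same clonotype. No non-productive contig had the CDR3 of a productive contig in its own cell (0 of 174, which allows up to 1.72%).

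**Figure D1:**
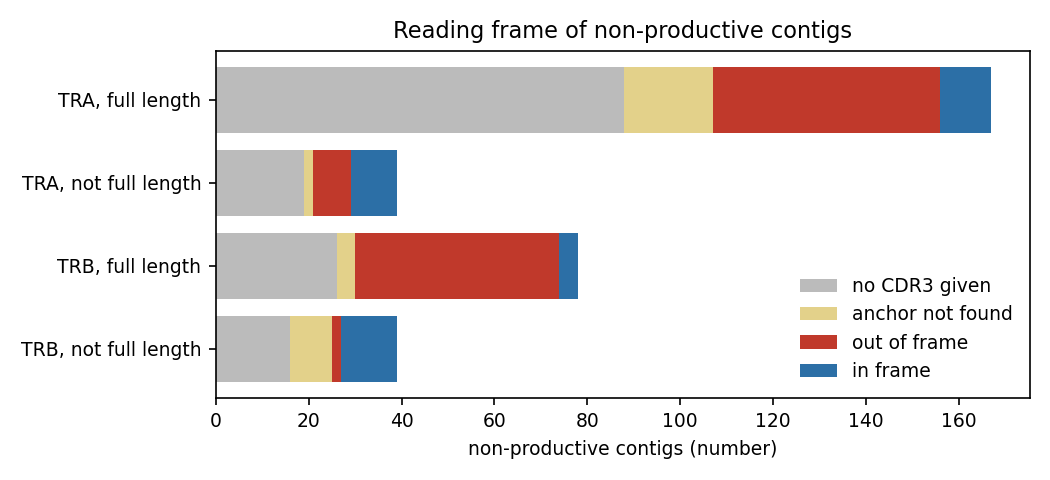
Number of non-productive contigs (x axis) by chain and by the mark for full length (bars), coloured by whether the joint was in frame, out of frame, lacked a frame anchor or had no CDR3 given. Most full-length TRB contigs with both anchors were out of frame (44 of 48), while 12 of the 14 that were not full length were in frame.

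The J gene was named in 197 of 206 non-productive TRA and 113 of 117 TRB contigs, and the V gene in all. The C gene was named in 193 TRA (93.7%, 89.5 to 96.6) and 103 TRB contigs (88.0%, 80.7 to 93.3), against 872 of 876 and 974 of 981 productive ones. TRBC1, the first of the 2 β constant genes, was used by 47 of those 103 (45.6%, 35.8 to 55.7) and by 371 of 974 productive contigs (38.1%, 35.0 to 41.2). A D segment was named in 29 of 117 non-productive (24.8%, 17.3 to 33.6) and 218 of 981 productive TRB contigs (22.2%, 19.7 to 24.96). Both pairs of intervals overlapped. The median contig length was 524.5 bases for non-productive and 554 for productive TRA, and 537 and 549 for TRB.

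Non-productive contigs were more frequent in TRA than in TRB. They made up 206 of 1082 TRA contigs (19.0%, 16.7 to 21.5) and 117 of 1098 TRB contigs (10.7%, 8.89 to 12.6), and 14.8% of both together (13.4 to 16.4). In barcodes that were not called cells the shares were 204 of 1091 (18.7%) and 435 of 2662 (16.3%), where 92.1% of TRA and 89.1% of TRB contigs had 1 UMI.

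A non-productive TRA contig stood beside a productive TRA in 154 of 799 cells (19.3%, 16.6 to 22.2). A non-productive TRB contig stood beside a productive TRB in 101 of 945 cells (10.7%, 8.79 to 12.8). Both shares fell by more than their intervals allow when contigs of 1 UMI were left out, to 10.6% for TRA and 6.48% for TRB. Non-productive TRA and TRB contigs were present together in 24 cells. Of the 769 cells with both productive chains, 217 carried a non-productive contig (28.2%, 25.1 to 31.5).

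Where 2 or more productive TRA contigs were read, a non-productive TRA was rare. A cell has 2 alleles, and 2 productive joints leave no allele for another, so this contrast is in part set in advance. Of the 77 cells with 2 or more productive TRA contigs, 3 also had a non-productive TRA (3.90%, 0.811 to 10.97), against 151 of 722 cells with 1 productive TRA (20.9%, 18.002 to 24.1). For TRB the counts were 2 of 36 (5.56%, 0.680 to 18.7) and 99 of 909 (10.9%, 8.94 to 13.1), whose intervals overlapped. More than 2 contigs of the chain, the number of alleles in a cell, were read in 6 of 843 cells for TRA and in 2 of 959 for TRB, each of them with a non-productive contig. In the 30 cells without a productive TRB, 14 held a non-productive TRB (46.7%, 28.3 to 65.7), a share above that of cells with a productive TRB. In the 176 cells without a productive TRA, 44 held a non-productive TRA (interval 18.8% to 32.1%), with an interval that overlapped that of the other cells.

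Non-productive contigs had fewer UMIs. The TRA contigs had a median of 2 UMIs (quartiles 1 and 3, highest 11) against 3 (2 and 5, highest 32) for productive TRA. The TRB contigs had a median of 2 (1 and 3, highest 20) against 8 (4 and 13, highest 66). A single UMI supported 97 of 206 TRA (47.1%, 40.1 to 54.1) and 44 of 117 TRB contigs (37.6%, 28.8 to 47.0), against 13.01% and 1.94% of productive contigs. Every cell held at least 2 productive UMIs over its chains, while no such minimum held for non-productive contigs. What part the choice of cells had in the difference was not tested. Median reads were 3081 against 5770 for TRA and 4313 against 16955 for TRB. Reads per UMI were close, with medians of 1989 (1802 to 2179) and 1896 (1822 to 1960) for TRA and of 2223 (1967 to 2431) and 2299 (2248 to 2360) for TRB, with overlapping intervals in each chain.

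The difference was also present within cells and was larger for TRB. The ratio of the most abundant non-productive to the most abundant productive contig of the same cell had a median of 0.633 for TRA (interval 0.50 to 1, n = 154) and of 0.333 for TRB (0.25 to 0.36, n = 101). The TRA interval thus reached 1, that is, equal UMIs. The non-productive contig had fewer UMIs in 89 cells, as many in 40 and more in 25 for TRA, and in 85, 7 and 9 for TRB. Summed over these cells, non-productive TRA had 339 UMIs against 568, and TRB 274 against 874. The cell with the greatest excess among TRB held 15 UMIs of a TRBV13-1/TRBJ1-4 contig of clonotype 14 beside a productive contig of 3. The out-of-frame TRAV6D-6/TRAJ23 printed above had 11 UMIs beside a productive TRA of 6, and the TRBV31/TRBJ1-3 had 10 beside 9. This TRAV6D-6/TRAJ23 contig was not full length and had 1654 reads. Its 150 reads per UMI were the fewest of the out-of-frame TRA contigs, whose median was 2123. The most abundant non-productive contig of all, a TRBV16/TRBJ2-5 of 593 bases that was not full length, had 20 UMIs in a cell without a productive TRB.

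The lower of the 2 contigs was also set against the higher, which can be done in cells with 2 productive contigs too. This ratio had a median of 0.50 in cells with a non-productive beside a productive TRA (0.50 to 0.50) and of 0.667 in the 77 cells with 2 productive TRA (0.667 to 0.75). For TRB it was 0.333 (0.25 to 0.357) and, in 36 cells, 0.488 (0.40 to 0.556). In both chains the intervals did not overlap. The most abundant productive contig of these 36 cells had a median of 10 UMIs, against 7 in the 101 cells.

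**Figure D2:**
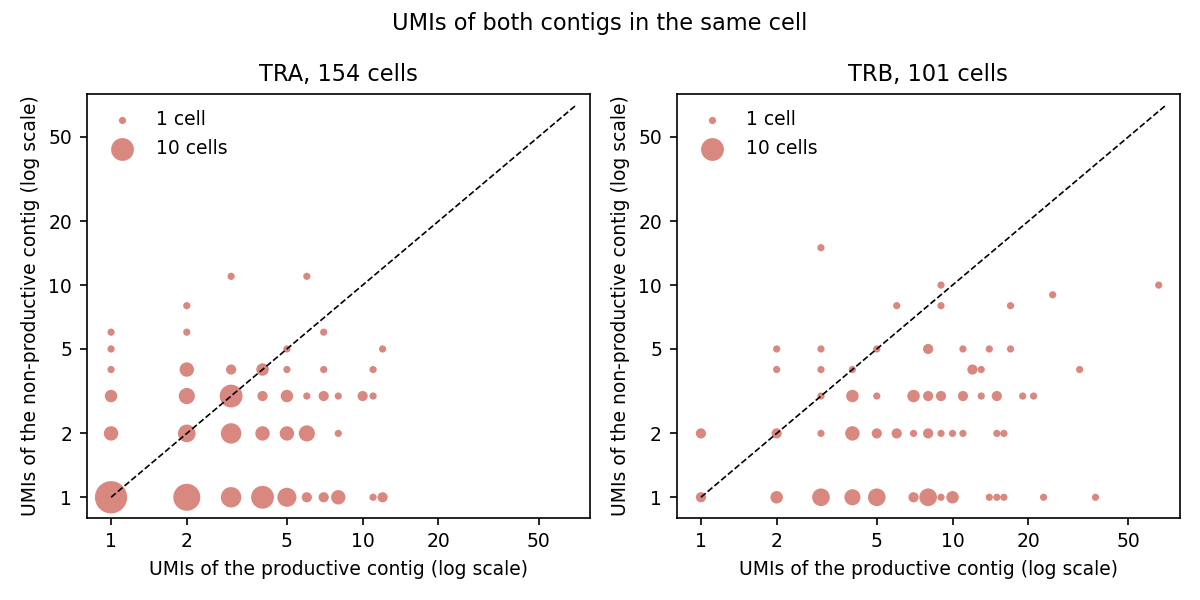
UMIs of the most abundant non-productive contig (y axis, log scale) against those of the most abundant productive contig (x axis, log scale) in the same cell, for TRA and TRB, with the area of a point giving the number of cells and the dashed line equality. In TRB 85 of 101 cells lie below the line, in TRA 89 of 154.

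The V genes of the non-productive contigs differed in share from those of the productive ones at 4 genes, all used more often by non-productive contigs, but which genes differed depended on the contigs of 1 UMI. The TRA locus lies on chromosome 14 and the TRB locus on chromosome 6 of GRCm38, and all but 1 of the 162 V and J names were found in the RefSeq table of that build. A gene was counted as different when the 95% intervals of its share among non-productive and among productive contigs did not overlap, among genes with at least 10 contigs of both kinds together. This was so for 2 of 47 TRA V genes (4.26%), 2 of 21 TRB V genes (9.52%), 0 of 39 TRA J genes (0%) and 0 of 12 TRB J genes (0%). The 21 include the joint name TRBV12-2+TRBV13-2, which is not a single gene. With fewer non-productive than productive contigs, lower use was harder to call than higher use, so the direction is in part set by these numbers. TRAV14-2, with 0 non-productive and 16 productive contigs, still had overlapping intervals. With 1 contig per clonotype, V and J gene, an alternative chosen after seeing the data, TRBV23, TRBV10, TRAV13N-4 and TRAV11 were again those apart. With contigs of at least 2 UMIs, 6 other genes were apart and none of these 4 was called. TRBV23 (5 and 4 contigs, intervals still apart), TRAV13N-4 (3 and 3) and TRAV11 (3 and 2) fell below the minimum of 10 contigs, and the intervals of TRBV10 (10 and 58) overlapped. Those apart were then TRBV31 (12 and 49), TRBV15 (8 and 32), TRBJ1-2 (11 and 59), TRAJ32 (9 and 18) and TRAJ7 (8 and 12), used more often by non-productive contigs, and TRAJ31 (0 and 41), used less often. Of the 8 TRAJ7 contigs, 4 came from clonotype 4. A TRBV15/TRBJ1-2 contig from each of 2 cells of clonotype 20 was counted for both genes. The alternative with 1 contig per clonotype was not run on contigs of at least 2 UMIs, so whether these genes stay apart was not tested.

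TRBV23 (6:41216073-41216526) made up 10 of 117 non-productive (8.55%, 4.17 to 15.2) and 4 of 981 productive TRB contigs (0.408%, 0.111 to 1.04). The 10 came from 10 clonotypes and only 2 were full length. TRBV10 was the most frequent V gene of the non-productive TRB contigs, with 18 (15.4%, 9.38 to 23.2) against 58 productive (5.91%, 4.52 to 7.58). The 18 came from 17 clonotypes, with 6 out of frame, 3 in frame and 9 without a CDR3. TRAV13N-4 (14:53362368-53364106) made up 8 of 206 non-productive (3.88%, 1.69 to 7.51) and 3 of 876 productive TRA contigs (0.342%, 0.0707 to 0.998). Unlike most others, 7 of these 8 were in frame. Full length was marked on 7 of the 8, as on most non-productive TRA contigs (81.1%). They made up 6 of the 11 contigs of TRA that were both in frame and full length, and the 8 had 6 J genes, with TRAJ22 in 3 and 7 clonotypes in all. TRAV11 (14:53519303-53519859), which joined to TRAJ18 forms the receptor of invariant natural killer T cells, made up 8 non-productive (3.88%, 1.69 to 7.51) and 6 productive contigs (0.685%, 0.252 to 1.48). All 8 were out of frame and 1 of them was joined to TRAJ18.

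The other named genes had overlapping intervals. In TRB the next most frequent were TRBV31 with 13 non-productive and 50 productive contigs, TRBV15 with 10 and 32, and TRBV5 with 10 and 63. TRBV17 had 7 and 22. The lowest ratios of the non-productive to the productive share were at TRBV2 (1 and 44 contigs, 0.191), TRBV14 (1 and 36, 0.233) and TRBV1 (2 and 65, 0.258). In TRA the most frequent were TRAV3N-3 with 13 and 33 contigs, TRAV13N-2 with 9 and 20, TRAV12N-2 with 8 and 20 and TRAV13-1 with 8 and 27. TRAV8D-1 had 4 and 6, but all 4 came from 1 clonotype. The 9 of TRAV13N-2 came from 7 clonotypes. TRAV14-2, TRAV14D-3-DV8 and TRAV14N-2 had no non-productive contig (0 of 206, which allows up to 1.46%) and 16, 10 and 13 productive ones.

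Among J genes, TRAJ32 was the most frequent in non-productive TRA, with 12 of 197 (6.09%, 3.19 to 10.4) against 21 productive contigs (2.40%, 1.49 to 3.64). TRAJ22 followed with 11 against 62, and TRAJ18, TRAJ23 and TRAJ27 had 10 each against 20, 46 and 20. Clonotype 7 gave 3 of the 10 TRAJ18 contigs, and clonotype 1 gave 2 of the 10 TRAJ27 contigs. TRAJ11 had 5 against 9. The lowest ratios were at TRAJ21 (1 and 24 contigs, 0.185), TRAJ48 (1 and 13, 0.342) and TRAJ49 (2 and 23, 0.387). In TRB, TRBJ1-2 had 15 of 113 (13.3%, 7.62 to 20.9) against 59 productive (6.01%, 4.61 to 7.69), with intervals that just overlapped, and TRBJ2-7 15 against 170. TRBJ2-4 had 13 and 74, TRBJ2-1 12 and 104, TRBJ2-5 12 and 113, and TRBJ1-3 9 and 52. TRBJ2-2 (2 and 64), TRBJ1-5 (2 and 33) and TRBJ1-1 (10 and 117) had the lowest ratios, of 0.271, 0.526 and 0.742. The TRBJ1 cluster held 49 of 113 non-productive joints (43.4%, 34.1 to 53.0) and 377 of 981 productive joints (38.4%, 35.4 to 41.6).

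**Figure D3:**
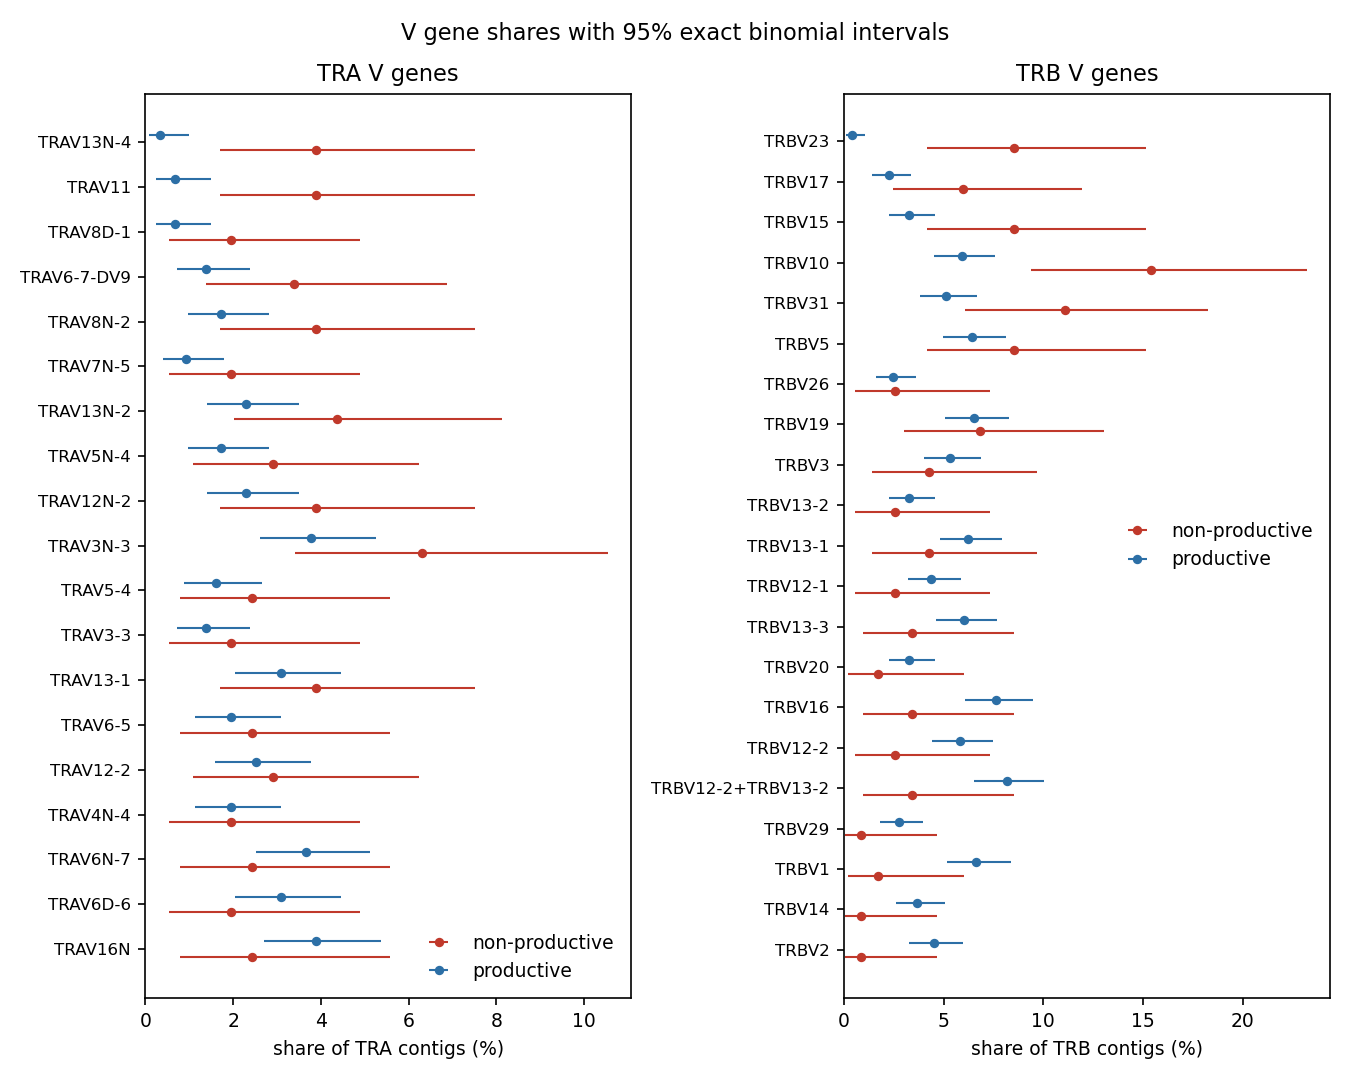
Share of contigs (x axis, %) that use each V gene among non-productive (red) and productive (blue) contigs, with 95% exact binomial intervals, for TRB V genes with at least 10 contigs and TRA V genes that also had at least 4 non-productive ones, ordered by the ratio of the shares. The intervals are apart at TRBV23, TRBV10, TRAV13N-4 and TRAV11.

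The 2 TRA contigs of a cell used J segments near each other. In the 150 cells with a J gene named in both, the J of the non-productive and that of the productive TRA lay a median of 6.24 kb apart (4.70 to 7.13, quartiles 2.34 and 10.9). Over all 22350 pairings of a non-productive contig with the productive contig of a different one of these cells, the median was 14.3 kb. The positions had a Pearson r of 0.746 and a Spearman rho of 0.718 across the 150 cells, which come from 144 clonotypes and 1 mouse, and with 1 cell per clonotype r was 0.746. In the 77 cells with 2 productive TRA the median distance was 7.17 kb (4.82 to 9.79) and r was 0.604. Non-productive joints lay a median of 35.0 kb (32.6 to 38.8) and productive joints 32.6 kb (30.6 to 34.4) downstream of the most upstream J used. At TRB, a TRBJ1 joint was read in 19 of 36 non-productive contigs beside a productive TRBJ1 (52.8%, 35.5 to 69.6) and in 25 of 62 beside a productive TRBJ2 (40.3%, 28.1 to 53.6), with overlapping intervals.

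**Figure D4:**
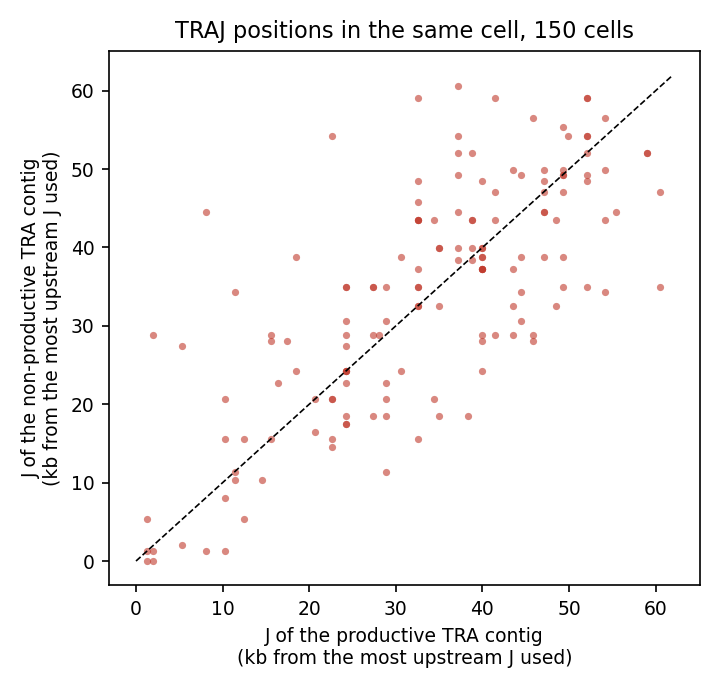
Position of the J segment of the non-productive TRA contig (y axis) against that of the productive TRA contig (x axis) in the same cell, both in kb from the most upstream J segment used, with 1 point per cell for 150 cells and a dashed line at equal position. The points lie along the line, at a median distance of 6.24 kb.

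Cells of one clonotype often shared the V and J gene of a non-productive contig, which the clonotype definition does not use. Of 27 clonotypes of 2 or more cells, 14 had a non-productive contig and 6 had one in 2 or more cells, which gave 17 pairs of cells, 6 of them from clonotype 4. The pair had a contig of the same V and J gene in 16 of 17 (94.1%, 71.3 to 99.9), against 56 of 41599 pairs of cells of different clonotypes (0.135%, 0.102 to 0.175). With contig lengths also within 10 bases, the main rule planned for this result, it was 4 of 17 (23.5%, 6.81 to 49.9) against 14 of 41599 (0.0337%). The V and J gene alone was an alternative to that rule. With the same CDR3 bases given in both, a rule chosen after seeing the data, it was 6 of 17 (35.3%, 14.2 to 61.7) against 0 of 41599, which allows up to 0.00721%.

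All 4 cells of clonotype 4 carried TRAV8D-1/TRAJ7, with 2, 4, 2 and 6 UMIs and lengths of 530, 530, 548 and 548 bases. All 3 cells of clonotype 7 carried TRAV13N-2/TRAJ18, with 2, 3 and 3 UMIs and lengths of 505, 516 and 711 bases. No CDR3 was given for either joint. In clonotype 3, 3 of 5 cells carried the TRAV12-1/TRAJ26 junction printed above, with 3, 1 and 2 UMIs. In clonotype 1, 3 of 9 cells carried a non-productive contig, 2 of them the TRAV11/TRAJ27 junction (1 and 3 UMIs) and 2 the TRBV10/TRBJ2-7 junction (2 and 1 UMIs). Both cells of clonotype 20 carried TRBV15/TRBJ1-2, with 3 and 4 UMIs. Both cells of clonotype 14 carried TRBV13-1/TRBJ1-4, with 5 and 15 UMIs and no CDR3 given. A contig of the same V and J gene was thus read in every cell of 4 clonotypes and in some cells of the other 2. In clonotypes 4, 7 and 14, without a CDR3, whether the joint was the same was not read.

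The V gene of a non-productive contig was also seen in the gene expression library, a separate library of the same cells. The count is of pairs of a cell and a V gene, so a cell with 2 V genes counts for each. For TRB, 93 of 113 pairs with a non-productive contig of a V gene that no productive contig of the cell used had a UMI of that gene (82.3%, 74.0 to 88.8). Among cells with no contig of that V gene the mean share was 0.982%, and among productive contigs it was 897 of 901 (99.6%, 98.9 to 99.9). Contigs with the joint name TRBV12-2+TRBV13-2, 4 non-productive and 80 productive, are not in the 113 and 901. For TRA it was 110 of 205 (53.7%, 46.6 to 60.6), with 0.405% in cells without the V gene and 571 of 876 productive contigs (65.2%, 61.9 to 68.3). Of the 205 pairs, 65 used one of 15 TRA V genes, such as TRAV3N-3, for which no cell with a productive contig had a UMI, and 2 of these 65 pairs had one. Many of these genes have near-identical copies in the locus, and whether the counting of their reads had a part in this was not tested. With each cell thinned to 2500 UMIs, which left out 101 shallower cells, the shares were 57.0% for TRB and 31.9% for TRA, with 0.579% and 0.201% in cells without the gene.

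The names of TRBV10 differed between the libraries. Of the 58 cells with a productive TRBV10 contig, 56 had UMIs of Trbv4 (96.6%, 88.1 to 99.6) and 0 had UMIs of Trbv10 (which allows up to 5.17%), while 1 of 899 cells without a TRBV10 contig had Trbv4. In RefSeq, Trbv4 (6:41059443-41059886) carries the older name Tcrb-V10 and Trbv10 is a pseudogene, so TRBV10 contigs were set against Trbv4. It was detected in 10 of the 18 cells with a non-productive TRBV10 (55.6%, 30.8 to 78.5), a share below that of the productive cells.

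Detection differed between V genes. All 13 cells with a non-productive TRBV31, all 10 with TRBV15 and all 7 with TRBV17 had a UMI of the gene. For TRBV5 it was 7 of 10, against 62 of 63 productive cells. For TRBV23 it was 3 of 10 (30.0%, 6.67 to 65.2), against 4 of 4 productive cells, with overlapping intervals. For TRAV8N-2 it was 1 of 8 (12.5%, 0.316 to 52.7) against 15 of 15 (100%, 78.2 to 100), with intervals apart. For TRAV13N-4 it was 7 of 7 against 2 of 3.

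**Figure D5:**
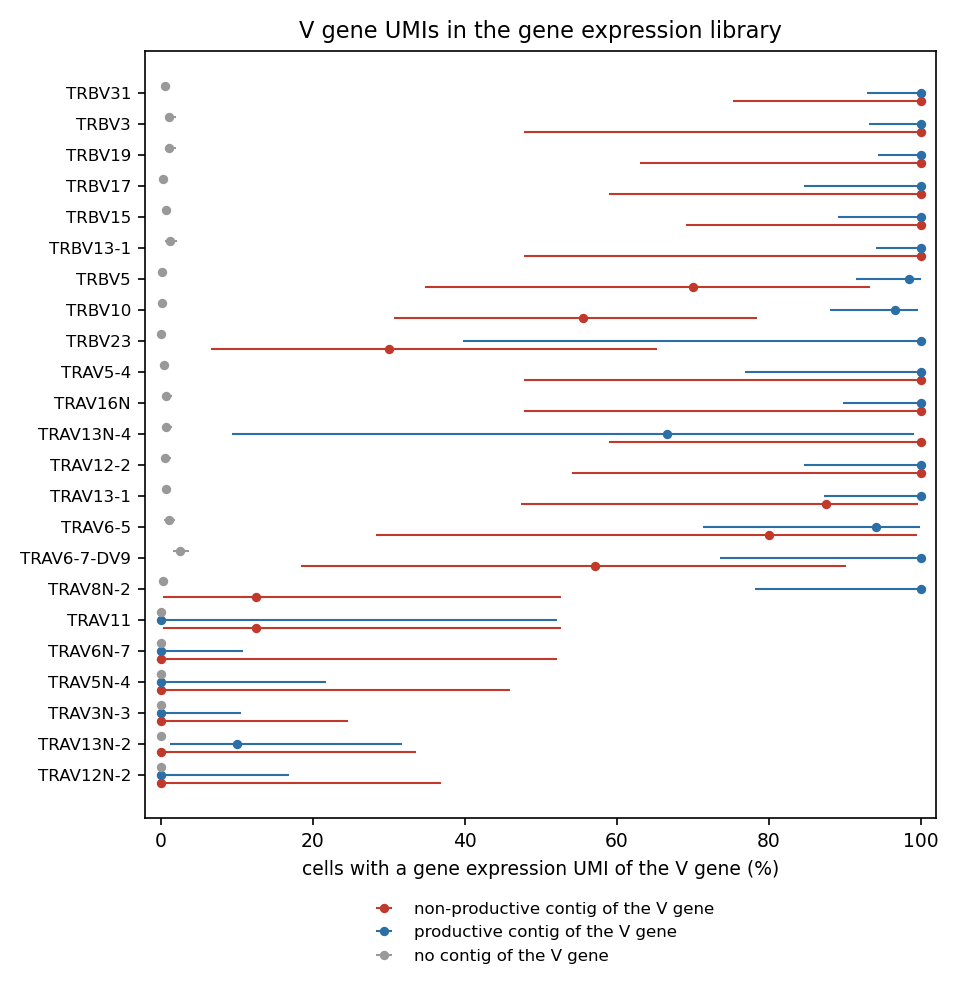
Share of cells (x axis, %) with a gene expression UMI of the V gene named on the y axis, for cells with a non-productive contig of it (red), a productive contig of it (blue) or no contig of it (grey), with 95% exact binomial intervals, for V genes with at least 5 cells of the first kind. TRBV10 stands for Trbv4. TRBV31, TRBV15 and TRBV17 are at 100% in red and blue, and TRAV8N-2 is at 12.5% in red and 100% in blue.

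Cells with a non-productive contig were similarly frequent in the 2 main T cell lineages. Among cells with UMIs of Cd4 and none of Cd8a or Cd8b1, the MHC class II and class I coreceptors, 83 of 268 carried one (31.0%, 25.5 to 36.9). Among cells with Cd8a or Cd8b1 and no Cd4 it was 154 of 526 (29.3%, 25.4 to 33.4), although these cells had a median of 7288 UMIs against 3855. Within a window of gene expression depth from 2500 to 7500 UMIs the Cd4 cells were at 33.2% (26.6 to 40.2) and the Cd8 cells at 29.0% (23.5 to 34.9). Over 4 bins of gene expression depth with like numbers of cells, from the shallowest, the share was 25.4%, 29.6%, 34.0% and 29.5%, with overlapping intervals. Over 4 such bins of productive TCR UMIs it was 28.9%, 30.4%, 29.3% and 29.8%. Cells of clonotypes of 2 or more carried one in 25 of 76 (32.9%, 22.5 to 44.6), and cells of clonotypes of 1 in 264 of 899 (29.4%, 26.4 to 32.5).

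The 150 cells with under 10% of their UMIs from ribosomal protein genes had fewer non-productive TRA contigs, in 16 of 150 (10.7%, 6.22 to 16.7) against 182 of the other 825 (22.1%, 19.3 to 25.05). Within the same depth window they were at 10.0% (5.10 to 17.2) and the others at 23.6% (19.8 to 27.7). A productive TRA was likewise read in fewer of them, 67.3% (59.2 to 74.8) against 84.6% (82.0 to 87.0), and Cd3e was detected in 82.0% against 98.1%. Among cells with a productive TRA, 9 of 101 had a non-productive TRA (8.91%, 4.16 to 16.2). In the others with a productive TRA it was 145 of 698 (20.8%, 17.8 to 24.0), with intervals still apart. The share with a non-productive TRB was 18 of 150 (7.27% to 18.3%) against 11.8% (9.64 to 14.2). What part the RNA content of these cells had in the TRA share was not tested.

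Genes of recombination and of nonsense-mediated decay had like levels in cells with and without a non-productive contig. Levels were UMIs per 10000 pooled over 289 cells (1783936 UMIs) and 686 cells (4060110 UMIs), and a gene with at least 50 UMIs was called when they differed by 1.5-fold. Over all 8480 such genes outside the TCR loci, 1.76% were called higher and 3.61% lower in cells with a non-productive contig, and the median ratio was 0.989. Of the 12 recombination genes 6 had at least 50 UMIs, and none was called, with ratios from 0.834 (Prkdc) to 1.34 (Dclre1c) and a median of 1.06. Rag1 and Rag2, the recombinase itself, had 0 UMIs in both groups, which allows up to 0.0168 and 0.00739 per 10000. Dntt, which adds bases to the joints, had 6 and 19 UMIs. All 16 decay genes had at least 50 UMIs and none was called, with a median ratio of 1.01. The helicase Upf1 was at 0.342 (0.262 to 0.439) against 0.347 (0.292 to 0.410). The constant genes Trac, Trbc1 and Trbc2 had ratios of 1.09, 1.01 and 0.993. Trdc, of the γδ receptor, had 1 UMI in the 289 cells and 23 in the others.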

How the data were processed

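V(D)J and gene expression libraries of blood T cells from 1 vehicle-treated mouse were used. The authors made both with Cell Ranger (version 4 per the matrix header, not given for the V(D)J run) on GRCm38, per the labels' processing notes. Deposited values were raw counts: UMIs and reads per assembled contig, with contig length in bases, and UMIs per gene and barcode. No filter was applied beyond the cell mark, and 964 of the 975 cells lay above a limit of 1331 gene expression UMIs. Shares, intervals and medians were computed with Python 3, pandas and SciPy. Frame anchors were matches of 12, 9 or, at least, 7 (V) and 6 (J) bases to productive contigs, checked on simulated junctions. Named genes were, per chain, the 5 V and 5 J genes with most non-productive contigs and the 3 highest and 3 lowest ratios of shares among genes with at least 10 contigs; TRAV8N-2 and the expanded clonotypes were named after their values were seen. The members, lists and cut-offs were chosen with earlier results of these data known. RefSeq gene coordinates are those of GRCm38.p6. Alternatives were high-confidence, full-length or 2-UMI contigs, the UMI limit, reads, sums, thinning and other matching rules.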

Additional observations from a re-analysis of the deposited data

How the results depend on the processing

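Of 47 alternatives over 13 results, 35 left the value within its 95% interval or, for the number of V and J genes apart, within 1.5 times. The 35 include all those with high-confidence contigs only or the productive field False only, which could not differ because they kept the same contigs. With contigs of at least 2 UMIs, the non-productive share of contigs fell to 9.55%, the share of cells with a non-productive beside a productive TRA to 10.6% and TRB to 6.48%, and the share of cells carrying one to 17.2% of Cd4 cells and 19.2% of Cd8 cells, by construction with fewer contigs. The V and J genes apart were then 6 and included none of the main 4. This alternative is still among the 35, since only the number of genes was compared, not which genes they were. With full-length contigs only, the first 3 were 11.7%, 16.4% and 7.30%. High-confidence contigs only, and contigs with the productive field False only, were the same contigs. The match of non-productive contigs in pairs of one clonotype was 94.1% with V and J gene only, against 23.5% with the main rule, which also asked for like contig lengths. With each cell thinned to 2500 UMIs, the V gene was detected in 31.9% (TRA) and 57.0% (TRB) of pairs of cell and gene, and with TRBV10 matched by name in 73.5% (TRB). The CDR3 and TRBV10 matching rules, 1 cell or contig per clonotype, and the pairs without clonotype 4 were added after seeing the data. No paired analysis was possible because there was 1 sample. With 1 library, the spread between mice is unknown.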
